A study of Mus musculus with 18 samples.

Results

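The 33 genes described here mark the T cells, intraepithelial lymphocytes and natural killer (NK) cells of the mouse colon. They were picked by symbol, and all 33 were found among the 35976 gene rows of the deposited expression table. The table covers 18 libraries of bulk colon RNA taken on day 2, in 3 groups of 6. Sham mice had no TNBS colitis. In the other 2 groups, colitis had been set off with the hapten TNBS, and the mice were given vehicle or ISM012-042, a compound that the series presents as a PHD inhibitor acting only in the gut. The PHD enzymes sense oxygen and mark the hypoxia-inducible factors for breakdown. The sources used here do not give strain, sex, age, genotype, dose or route. No label says whether the libraries of a group came from different mice or from pools, so each p-value measures the spread between these samples.

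T cells recognise antigen with a receptor that has no signalling tail of its own and relies on the CD3 chains and the zeta chain. The coreceptors CD4 and CD8 bring in the kinase LCK, which phosphorylates those chains, and ZAP-70 and the adaptor LAT then pass the signal on. Colonic T cells live in the lamina propria, in lymphoid follicles and, as intraepithelial lymphocytes, between the epithelial cells, where the integrin CD103 (Itgae) binds E-cadherin and many cells carry CD8 as a pair of alpha chains and store granzymes. NK cells and related innate lymphocytes lack CD3 and bear receptors such as NKp46 (Ncr1).

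Several of the genes lie side by side. Cd3g and Cd3d are 1.34 kb apart on chromosome 9, with Cd3e 11.7 kb further on, and Cd8b1 and Cd8a are 35.9 kb apart on chromosome 6. Cd28, Ctla4 and Icos follow each other on chromosome 1 at gaps of 136 and 44.9 kb, and Cd5 and Cd6 lie 50.3 kb apart on chromosome 19. Promoter sequence from RefSeq, build GRCm38.p6, matched 23 of the 33 genes. The 250 bases before the first listed start were searched on both strands for TGTGGT (the RUNX core), GGAAGT (ETS), AGGTGTGA (T-box) and CAGNTG (E-box). In 10 of the 23 windows some bases lay inside the gene's own annotated extent, because transcripts of that gene start at different places. The windows below show the genes on which the cytotoxic and NK results turn, with Lck and Cd3g as T cell genes for comparison. They read 5′ to 3′ along the gene, and capitals mark each TGTGGT or its reverse complement ACCACA.

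Gzma, chr13:113100982-113101231, minus strand: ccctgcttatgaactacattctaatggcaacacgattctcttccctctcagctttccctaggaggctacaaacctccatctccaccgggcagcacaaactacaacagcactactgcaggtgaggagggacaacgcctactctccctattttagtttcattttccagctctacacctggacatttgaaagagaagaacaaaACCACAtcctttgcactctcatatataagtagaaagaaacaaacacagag
Gzmb, chr14:56262335-56262584, minus strand: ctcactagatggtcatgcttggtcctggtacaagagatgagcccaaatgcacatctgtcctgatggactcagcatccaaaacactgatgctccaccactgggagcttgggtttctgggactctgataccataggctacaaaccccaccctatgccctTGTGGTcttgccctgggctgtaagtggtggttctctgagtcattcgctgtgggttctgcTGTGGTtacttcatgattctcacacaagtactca
Ncr1, chr7:4337465-4337714, plus strand: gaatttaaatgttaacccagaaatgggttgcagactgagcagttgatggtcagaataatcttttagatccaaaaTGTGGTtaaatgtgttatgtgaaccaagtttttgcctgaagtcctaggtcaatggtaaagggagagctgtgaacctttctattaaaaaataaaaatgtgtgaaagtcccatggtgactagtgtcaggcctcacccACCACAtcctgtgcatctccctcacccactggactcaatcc
Lck, chr4:129573642-129573891, minus strand: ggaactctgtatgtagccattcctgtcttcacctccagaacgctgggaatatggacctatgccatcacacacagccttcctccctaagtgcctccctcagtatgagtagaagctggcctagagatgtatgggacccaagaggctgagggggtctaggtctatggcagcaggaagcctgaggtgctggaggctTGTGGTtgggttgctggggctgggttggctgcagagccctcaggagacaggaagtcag
Cd3g, chr9:44980432-44980681, minus strand: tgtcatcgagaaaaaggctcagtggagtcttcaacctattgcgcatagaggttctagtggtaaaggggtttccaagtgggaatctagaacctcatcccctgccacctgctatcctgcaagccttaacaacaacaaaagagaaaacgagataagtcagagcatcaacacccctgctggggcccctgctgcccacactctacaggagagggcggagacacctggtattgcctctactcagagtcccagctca

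The RUNX core was present in 8 of the 23 windows (34.8%), against 14.0% of all 32851 promoters. These 8 were the 6 cytotoxic and NK genes Gzma, Gzmb, Nkg7, Prf1, Klrk1 and Ncr1, together with Cd160 and Lck. In Gzma the match began 50 bases before the start, in Gzmb 93 and 34 bases before it, and in Ncr1 176 and 41 bases before it. The window of Cd3g held neither the RUNX core nor the ETS motif. The ETS motif was found in 8 windows (34.8%, against 19.7% of all promoters), the E-box in 17 (73.9% against 44.8%) and the T-box in Nkg7 alone (4.35% against 1.12%). These matches describe the letters of the windows and say nothing of binding.

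Values are TPM (length-normalised transcript abundances), which sum to 1000000 in each library and leave the sequencing depth unknown. Between 12681 and 14632 genes reached 1 TPM per library. The colon epithelium genes that were summed as a check of the tissue ranged from 6277 to 16868 TPM over the libraries. The lymphocyte genes were low in comparison: the 33 together gave 34.7 to 252.8 TPM. Only Thy1, which fibroblasts and neurons also make, had a median above 10 TPM in every group. Mitochondrial transcripts took 20.1 to 57.8% of the TPM, and a larger share lowers the TPM of every other gene. In whole tissue, fewer cells of a type and less RNA per cell cannot be told apart.

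One library stood apart before any comparison was made. ISM012-042 replicate 3 had the highest value of all 18 libraries for 26 of the 33 genes, and a summed level of 252.8 TPM. ISM012-042 replicate 2 followed with 148.0 TPM, vehicle replicate 1 had 100.9, and the other 15 libraries lay between 34.7 and 78.4. ISM012-042 replicate 3 was also rich in genes of lymphoid follicles, and replicate 2 less clearly so. The 12 B cell genes summed to 779.0 TPM in ISM012-042 replicate 3 and 160.8 in replicate 2, against 8.71 to 147.2 in the other 16 libraries. Follicle stroma genes, namely the chemokines Cxcl13, Ccl19 and Ccl21a and the vascular addressin Madcam1, summed to 404.9 and 324.5 TPM in these 2 libraries and to 44.0 to 128.2 TPM elsewhere. In replicate 2 most of this sum was Ccl21a, at 251.2 TPM. Its Cxcl13 (53.0 TPM) was close to that of vehicle replicate 2 (50.6), and its Madcam1 (11.1 TPM) to that of vehicle replicate 5 (11.2). Its Ccl19 was 9.28 TPM, beside 2.47 in vehicle replicate 2. Within ISM012-042 replicate 2, fibroblast and enteric neuron genes were also highest, at 1387 TPM against 239.2 to 501.7 TPM in the other libraries.

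Other signals were high in the same 2 libraries. Dendritic cell genes summed to 20.9 and 23.1 TPM in ISM012-042 replicates 2 and 3, against 3.56 to 18 TPM elsewhere. Monocyte and macrophage genes summed to 1540 and 1084 TPM there, and vehicle replicates 2 and 1 had 1158 and 798.8 TPM. Ptprc, the pan-leukocyte gene CD45, stood at 44.3 and 76.2 TPM, beside 43.4 TPM in vehicle replicate 2. Hoxb13, a gene of the distal colon, was 219.1 and 211.0 TPM in these libraries and 0.329 to 68.8 TPM in the rest of their group. It was also highest of its group in vehicle replicate 1, at 179.3 TPM, and lay between 217.6 and 287.9 TPM in 4 sham libraries. The part of these signals in the differences below was not tested beyond the fits with Ptprc or Hoxb13 as a covariate.

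**Figure D1:**
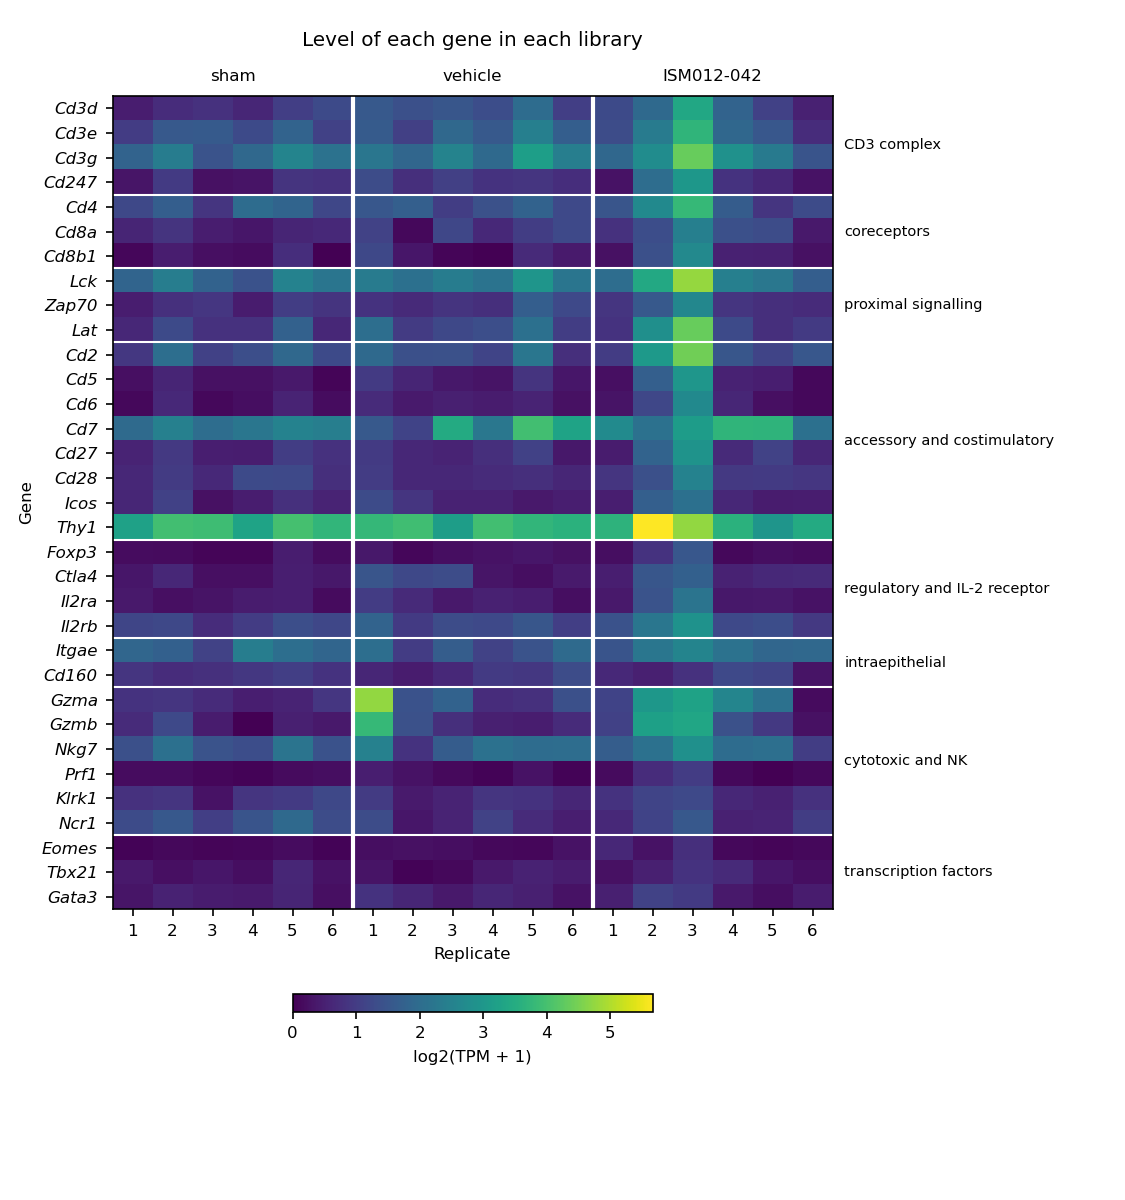
Level of each of the 33 genes in each of the 18 libraries, ordered by role and grouped as sham, vehicle and ISM012-042, with colour showing log2(TPM + 1). ISM012-042 replicate 3 is the highest library for 26 of the 33 genes.

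Vehicle replicate 1 differed in another way. It had the highest Gzma and Gzmb of all libraries but not the highest CD3 genes, and it led in the mast cell proteases Mcpt1 (115.3 TPM) and Mcpt2 (76.1 TPM) and in Cpa3 (5.92 TPM). ISM012-042 replicates 2 and 3 came next in Mcpt1, with 64.8 and 53.9 TPM. Vehicle replicates 5 and 6 had Mcpt1 levels of 28.5 and 25.7 TPM, with Gzma at 0.728 and 1.61 TPM. The differences that moved most with these libraries are given with and without them.

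**Figure D2:**
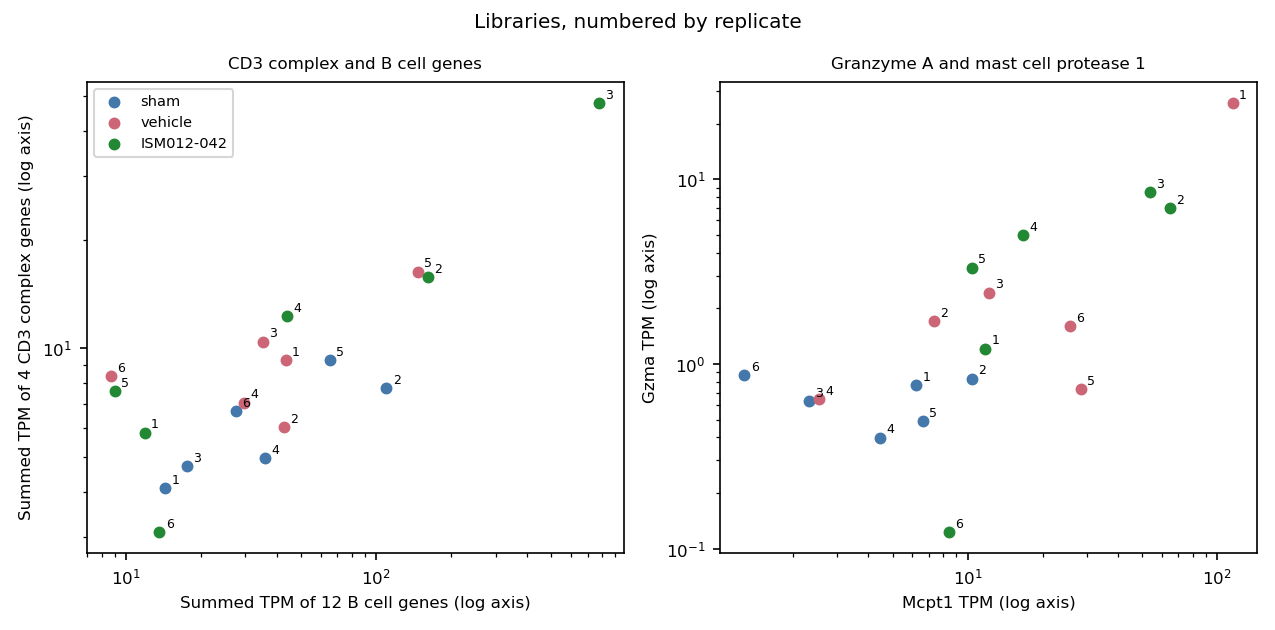
Left, summed TPM of the 4 CD3 complex genes against that of 12 B cell genes, and right, Gzma against the mast cell protease gene Mcpt1, both on log axes with 1 point per library, numbered by replicate. ISM012-042 replicate 3 lies alone at the top right on the left, and vehicle replicate 1 at the top right on the right.

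Differences between groups were tested with limma on log2(TPM + 1) over the 14129 genes that reached 1 TPM in at least 6 libraries, with Benjamini-Hochberg adjustment and a threshold of 0.05. Of the 33 genes, 16 met this minimum and 17 did not. The minimum was counted over all 18 libraries, so a gene could meet it through the groups where it is high. Gzma and Cd8a stayed under 1 TPM in every sham library, while Ncr1 reached it in every sham library but only in some others. The direction of such differences from sham, and the medians of the 16, can thus be partly set by the minimum. All differences that follow are on the log2(TPM + 1) scale, with their SE and 6 libraries per group, and they understate the change of low genes. In vehicle against sham, 0 of the 16 genes passed in either direction, where 0.326% of all tested genes passed as higher and 4.13% as lower. At an unadjusted p under 0.05, 0 were higher and 1 was lower, against 3.16% and 14.9% of all genes. For ISM012-042 against vehicle 0 of 16 passed, as did 0% of all genes in each direction, and 1 was higher and 0 lower at an unadjusted p under 0.05, against 18.9% and 0.127%. For ISM012-042 against sham 0 of 16 passed, against 0.545% of genes higher and 0.871% lower, and 4 were higher and 1 lower without adjustment, against 16.3% and 4.44%. The background depends on the scaling: with median-ratio scaling 517 genes were higher and 961 lower in vehicle against sham, in place of 46 and 584.

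The groups overlapped for every one of the 33 genes in all 3 comparisons. Among all tested genes, groups were fully apart as higher for 0.687% and as lower for 1.91% in vehicle against sham, for 0.651% and 0.0212% in ISM012-042 against vehicle, and for 3.8% and 1.05% in ISM012-042 against sham. The median difference of the 16 genes was 0.32 in vehicle against sham, where the median over all genes was -0.07. The median of the 16 was 0.03 with array weights (9 genes positive and 7 negative), beside 0.05 for all genes. It was 0.15 with Ptprc as a covariate (11 and 5), 0.17 without vehicle replicate 5 and 0.20 with Cd79b as a covariate. All genes then had medians of -0.12, 0.03 and -0.07. Other fits raised it, to 0.46 with mitochondrial genes left out and 0.42 with median-ratio scaling. With quantile normalization, or without vehicle replicate 2, it was 0.41. In ISM012-042 against vehicle the median of the 16 was 0.35, where all genes had a median of 0.30 and 92.1% of them were positive. In ISM012-042 against sham it was 0.61 against 0.21. With the minimum dropped, the median of all 33 genes was 0.17 in vehicle against sham, 0.28 in ISM012-042 against vehicle and 0.53 in ISM012-042 against sham. All 25729 genes of that fit had medians of -0.01, 0.14 and 0.06. These 3 comparisons share libraries in pairs, so their values are not independent of each other. When libraries were rescaled by median ratios, the median of all genes in ISM012-042 against vehicle moved from 0.30 to 0.01, that of the 16 genes was 0.07, and 10 were positive and 6 negative instead of 16 and 0.

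The position of the 16 genes between ISM012-042 and vehicle moved with ISM012-042 replicates 2 and 3. Without ISM012-042 replicates 2 and 3, 13 of the 16 genes were negative against vehicle and 3 positive, with a median of -0.19 beside 0.19 for all genes. Against sham, 10 were positive and 6 negative without them, with a median of 0.06. This fit was added after seeing the data, and it leaves out the 2 libraries with the highest summed levels of these same genes. Vehicle replicate 1, the next in that sum, stayed in. A fall of the summed level in ISM012-042 was thus built in, here and where this fit is given for single genes below. Leaving out replicate 3 alone turned 6 of the 16 negative against vehicle. With array weights, which give variable libraries less weight, 3 genes passed as higher in ISM012-042 than in sham, namely Cd3d (0.75, limma adjusted p = 0.0389), Cd7 (0.86, 0.0401) and Gzma (1.26, 0.0492), and Ncr1 passed as lower (-0.83, 0.00277). Under those weights 16.4% of all tested genes passed as higher and 6.64% as lower, so 3 of 16 and 1 of 16 lay near the background. With the B cell gene Cd79b as a covariate all 16 stayed positive against vehicle, at a median of 0.26. All 16 were positive there too with Hoxb13 or Ptprc as a covariate, at medians of 0.24 and 0.20, and against sham the medians were 0.66 and 0.31. With the mast cell protease gene Mcpt1 as a covariate, 3 of the 16 were positive and 13 negative in vehicle against sham (median -0.22), and 7 positive and 9 negative in ISM012-042 against sham (median -0.02). Mcpt1 itself ranged from 1.27 to 10.4 TPM in sham, 2.53 to 115.3 in vehicle and 8.40 to 64.8 in ISM012-042, so this covariate also takes up part of the difference between groups.

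**Figure D3:**
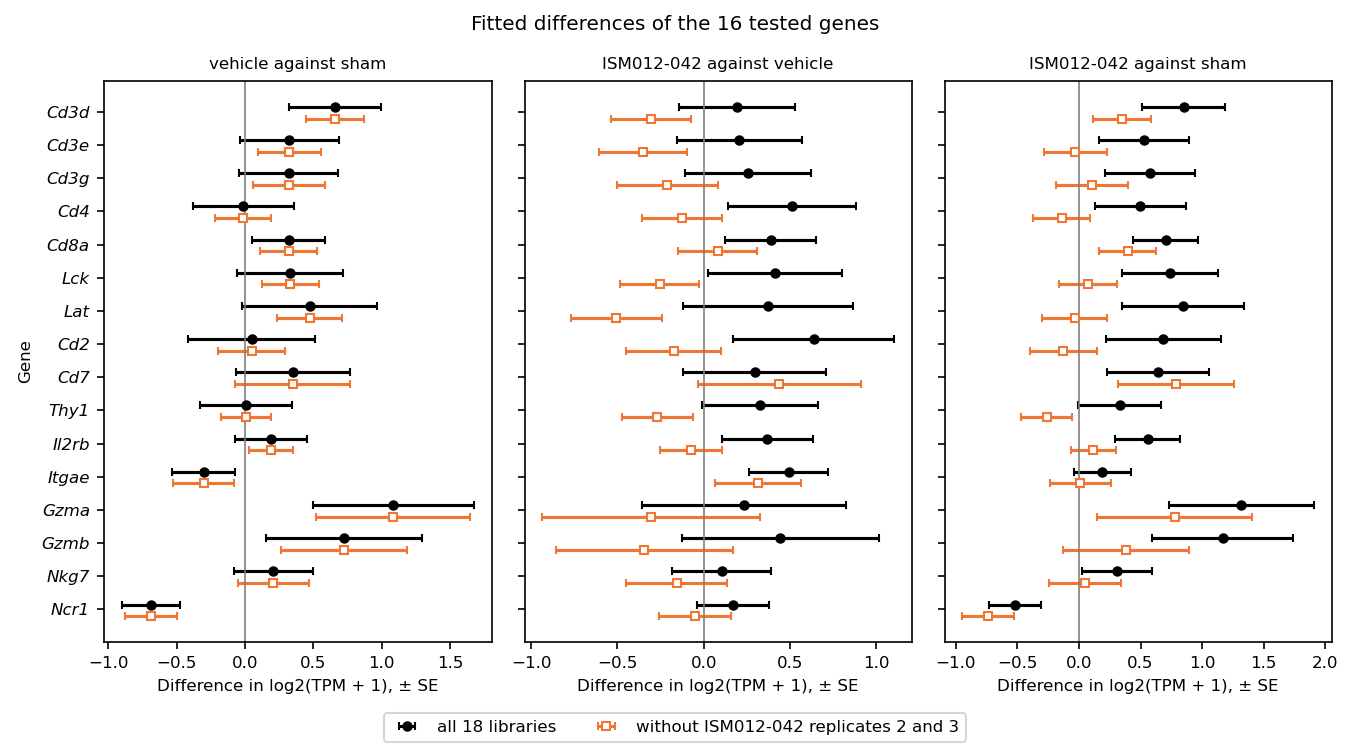
Difference of log2(TPM + 1) with its SE for the 16 tested genes in the 3 comparisons, from limma, with all 18 libraries (filled circles) and without ISM012-042 replicates 2 and 3 (open squares). With all libraries 0 genes passed after adjustment, and the open squares lie below 0 for 13 of the 16 genes in ISM012-042 against vehicle. The libraries left out were chosen after seeing the data and had the highest summed levels of these genes.

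For all 4 CD3 complex genes the TPM median was lowest in sham, with overlapping ranges and no difference that passed. Cd3e, the epsilon chain, ranged from 1.01 to 2.498 TPM in sham (median 1.71), from 1.09 to 4.47 in vehicle (median 2.18) and from 0.658 to 12.1 in ISM012-042 (median 2.31). The groups overlapped, and ISM012-042 held both the highest library (replicate 3) and the lowest (replicate 6). Cd3e differed by 0.32 ± 0.36 in vehicle against sham (limma, adjusted p = 0.701; 95% interval -0.44 to 1.08). Against vehicle, ISM012-042 was 0.21 ± 0.36 higher (adjusted p = 0.695), and -0.35 without replicates 2 and 3. The interval with all libraries, -0.55 to 0.96, allows differences of either sign.

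Cd3d, the delta chain, gave the largest CD3 differences from sham. It ranged from 0.364 to 1.41 TPM in sham (median 0.699), 1.07 to 3.02 in vehicle (median 1.72) and 0.427 to 9.52 in ISM012-042 (median 1.94). In vehicle 5 of 6 libraries lay above the highest sham library, and in ISM012-042 3 of 6 did. The difference was 0.66 ± 0.33 for vehicle against sham (limma, adjusted p = 0.311). Compared with sham, ISM012-042 was 0.85 ± 0.33 higher (limma, adjusted p = 0.183), which became 0.35 without replicates 2 and 3. Cd3g, the gamma chain, ranged from 1.71 to 4.88, 2.65 to 7.998 and 1.79 to 19.3 TPM in sham, vehicle and ISM012-042, and differed by 0.32 ± 0.36 in vehicle against sham. Cd247, the zeta chain, did not meet the minimum, with medians of 0.503, 0.815 and 0.657 TPM. Its exons share 3007 bases with Pou2f1 on the other strand, so without strand information its reads are uncertain.

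Among the coreceptors, Cd4 and Cd8a differed in where sham stood. Cd4, found on helper T cells and also on some macrophages, had nearly equal medians of 1.78 TPM in sham, 1.77 in vehicle and 1.98 in ISM012-042, with ranges of 0.828 to 2.997, 1.03 to 2.45 and 0.822 to 12.8. Its difference was -0.01 ± 0.37 in vehicle against sham (limma, adjusted p = 0.989; 95% interval -0.79 to 0.76). Cd8a, the alpha chain of CD8, ranged from 0.277 to 0.800 TPM in sham (median 0.503), 0.084 to 1.38 in vehicle (median 1.11) and 0.310 to 4.46 in ISM012-042 (median 1.52). In vehicle and in ISM012-042 4 of 6 libraries lay above the highest sham library. Cd8a was 0.70 ± 0.27 higher in ISM012-042 than in sham (limma, unadjusted p = 0.0157, adjusted p = 0.168), and 0.40 without replicates 2 and 3. Cd8b1, the beta chain that conventional CD8 T cells pair with the alpha chain, had medians of 0.158, 0.297 and 0.427 TPM and was listed at 0 in 1 sham and 1 vehicle library.

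The ratio of the 2 coreceptor genes within a library varied widely. The log2 ratio of Cd8a over Cd4 had a sham mean of -1.64 ± 0.79, a vehicle mean of -1.09 ± 1.42 and an ISM012-042 mean of -0.99 ± 1.03 (SD, n = 6). The difference of 0.55 between vehicle and sham did not exceed that spread (exact two-sided permutation p = 0.437, adjusted p = 0.968 over 27 comparisons of ratios). Cd8a over Cd8b1, which is higher where the alpha chain is made without the beta chain, averaged 1.09 ± 1.06, 1.22 ± 1.64 and 0.83 ± 0.88.

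**Figure D4:**
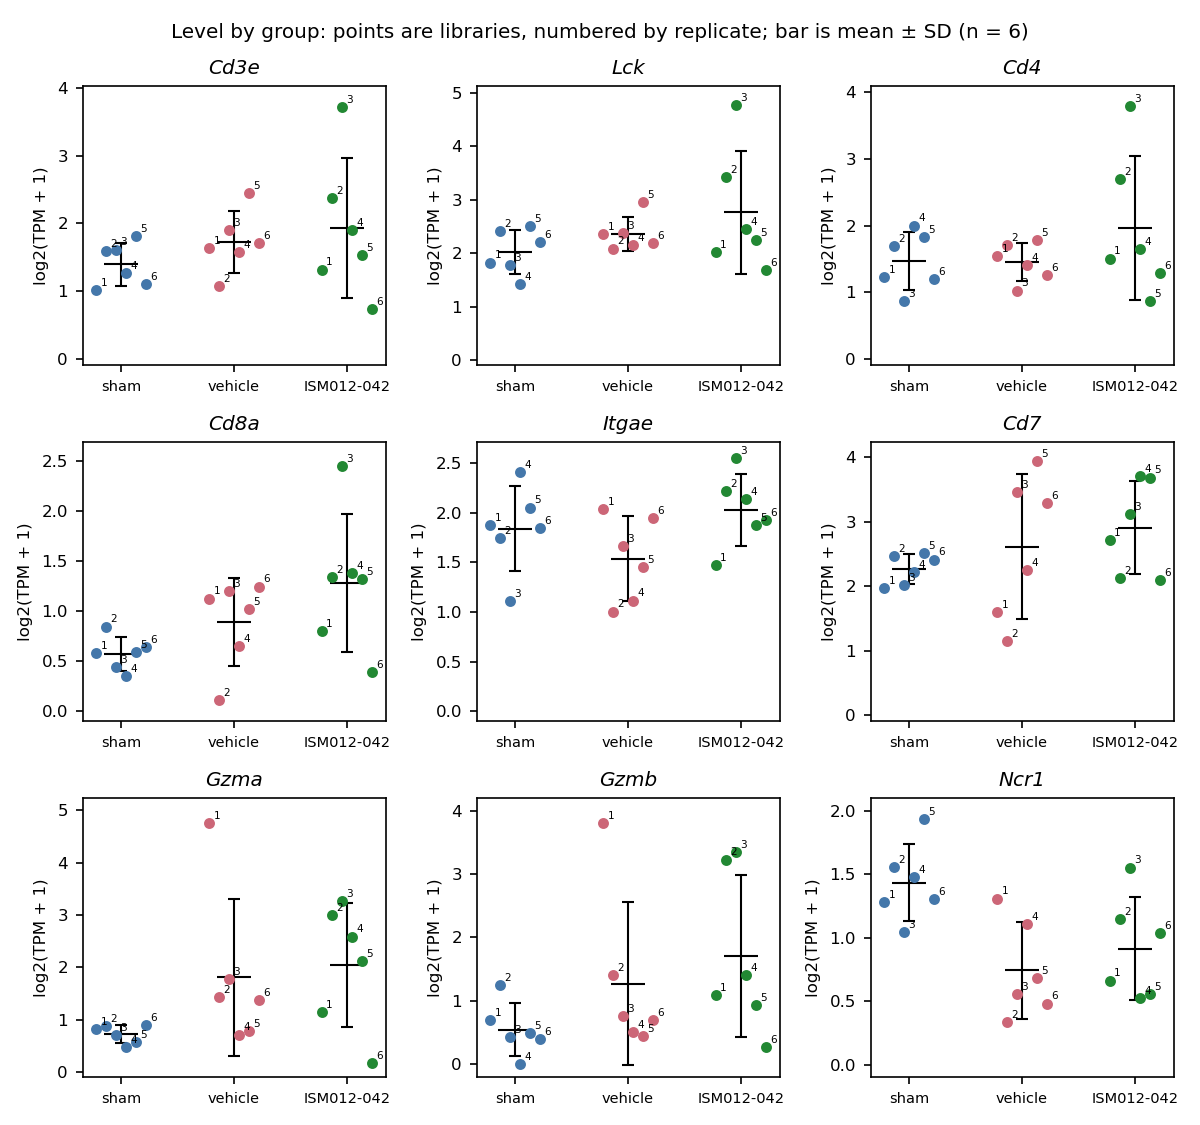
Level of 9 of the genes as log2(TPM + 1), with 1 point per library numbered by replicate, and the mean and SD of each group (n = 6). The sham and vehicle points overlap in every plot, and ISM012-042 replicate 3 or vehicle replicate 1 is the top point in most.

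Of the proximal signalling genes, Lck was the most abundant. It ranged from 1.68 to 4.68 TPM in sham (median 3.09), 3.25 to 6.76 in vehicle (median 3.85) and 2.21 to 26.4 in ISM012-042 (median 4.09). Its differences from sham were 0.33 ± 0.39 in vehicle and 0.74 ± 0.39 in ISM012-042 (limma, adjusted p = 0.717 and 0.273), the second becoming 0.07 without replicates 2 and 3. Lat, the adaptor that ZAP-70 phosphorylates, ranged from 0.549 to 2.40, 0.976 to 3.28 and 0.689 to 19.4 TPM. ISM012-042 replicates 3 and 2, at 19.4 and 6.08 TPM, were far above the other 4 libraries of that group, which lay between 0.689 and 1.40 TPM. Lat was 0.37 ± 0.49 higher in ISM012-042 than in vehicle, and -0.51 without those 2 libraries. Zap70 stayed under the minimum, with medians of 0.760, 0.783 and 0.840 TPM.

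The 8 accessory and costimulatory genes held the most and some of the least abundant transcripts. Thy1 ranged from 8.495 to 14.8 TPM in sham, 7.94 to 14.4 in vehicle and 6.70 to 49.7 in ISM012-042, where the top library was replicate 2, the one rich in fibroblast and neuron genes. Its difference was 0.01 ± 0.34 in vehicle against sham (95% interval -0.70 to 0.71). Cd2, an adhesion receptor of T and NK cells, had medians of 1.48, 1.63 and 1.88 TPM, and differed by 0.05 ± 0.47 in vehicle against sham. It was 0.64 ± 0.47 higher in ISM012-042 than in vehicle, and -0.17 without replicates 2 and 3.

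Cd7, an immunoglobulin-family receptor of T, NK and intraepithelial lymphocytes, was not highest in ISM012-042 replicates 2 or 3. It ranged from 2.92 to 4.71 TPM in sham (median 3.995), 1.21 to 14.4 in vehicle (median 6.28) and 3.27 to 12.1 in ISM012-042 (median 6.65). The narrow sham range lay inside that of vehicle, whose libraries fell on both sides of it. ISM012-042 replicates 4 and 5, at 12.1 and 11.9 TPM, were above replicate 3 at 7.71. The highest value, 14.4 TPM, was in vehicle replicate 5, where the B cell genes summed to 147.2 TPM. The difference was 0.35 ± 0.42 in vehicle against sham and 0.64 ± 0.42 in ISM012-042 against sham (limma, adjusted p = 0.723 and 0.357), the second becoming 0.79 without replicates 2 and 3.

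Cd5, Cd6, Cd27, Cd28 and Icos, which tune or costimulate the T cell receptor, were under the minimum. Cd5, a brake on receptor signalling, had group medians of 0.189, 0.394 and 0.420 TPM and reached 6.92 in ISM012-042 replicate 3. Its neighbour Cd6 had medians of 0.153, 0.376 and 0.372 TPM. Cd28, the receptor that gives naive T cells their second signal, had medians of 0.843, 0.595 and 0.936 TPM, and the related Icos 0.506, 0.455 and 0.465. Cd27 had medians of 0.610, 0.623 and 0.882 TPM.

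Regulatory T cell genes were among the lowest of the 33. Foxp3, the lineage factor of regulatory T cells, ranged from 0.048 to 0.362 TPM in sham, 0.067 to 0.294 in vehicle and 0.087 to 1.89 in ISM012-042, and reached 1 TPM in a single library. Its log2 ratio over Cd3e averaged -2.90 ± 0.61, -3.05 ± 0.45 and -2.70 ± 0.71 (SD, n = 6), and vehicle and sham differed by -0.14 (exact permutation p = 0.645). Foxp3 exons overlap those of Ccdc22 by 590 bases on the other strand and those of the noncoding gene Flicr by 853 bases on the same strand, so its reads are uncertain. Ctla4, the inhibitory receptor that competes with CD28, ranged from 0.171 to 0.555 TPM in sham and from 0.162 to 1.80 in vehicle. Vehicle replicates 1, 2 and 3 lay at 1.80, 1.35 and 1.51 TPM and the other 3 between 0.162 and 0.319. ISM012-042 ranged from 0.388 to 2.35 TPM, and 4 of 6 libraries lay above the highest sham library. Fitted without the minimum, Ctla4 was 0.55 ± 0.25 higher in ISM012-042 than in sham (limma, unadjusted p = 0.0438, adjusted p = 0.320).

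Il2ra, the alpha chain of the interleukin-2 receptor, had medians of 0.275, 0.406 and 0.312 TPM. Il2rb, the beta chain that interleukin-2 and interleukin-15 share, was the gene of this group above the minimum. It ranged from 0.650 to 1.57 TPM in sham (median 1.29), 0.939 to 2.47 in vehicle (median 1.43) and 0.924 to 6.45 in ISM012-042 (median 1.60). The difference was 0.56 ± 0.26 in ISM012-042 against sham (limma, unadjusted p = 0.0477, adjusted p = 0.237), and 0.12 without replicates 2 and 3.

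The intraepithelial marker Itgae stood lower in vehicle than in the other groups by its median, without passing the test. It ranged from 1.16 to 4.30 TPM in sham (median 2.63), 1.01 to 3.11 in vehicle (median 1.95) and 1.77 to 4.85 in ISM012-042 (median 3.10). The difference from sham was -0.30 ± 0.23 in vehicle (limma, adjusted p = 0.537), and ISM012-042 differed from vehicle by 0.49 ± 0.23 (unadjusted p = 0.0472, adjusted p = 0.259). Itgae, Cd7 and Cd8a were the 3 genes that kept a positive difference from vehicle without ISM012-042 replicates 2 and 3, Itgae at 0.31. Under median-ratio scaling Itgae was 0.24 (adjusted p = 0.904). Cd160, a receptor of intraepithelial and NK cells, had medians of 0.806, 0.739 and 0.663 TPM and a highest value of 1.501 TPM, in vehicle replicate 6.

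Gzma, which encodes the serine protease granzyme A, gave the largest differences from sham of the 16 genes. It met the minimum of 1 TPM only through vehicle and ISM012-042. In sham all 6 libraries lay between 0.399 and 0.869 TPM (median 0.696). Vehicle ranged from 0.646 to 25.9 TPM (median 1.66), and 4 of 6 libraries were above the highest sham value. ISM012-042 ranged from 0.123 to 8.57 TPM (median 4.17), and 5 of 6 libraries were above it, with replicate 6 the lowest of all 18. The difference was 1.08 ± 0.59 in vehicle against sham (limma, adjusted p = 0.354) and 1.32 ± 0.59 in ISM012-042 against sham (unadjusted p = 0.0386, adjusted p = 0.224). Without vehicle replicate 1 the first was 0.50, and without ISM012-042 replicates 2 and 3 the second was 0.78. With Mcpt1 as a covariate they were 0.03 and 0.14. This covariate was added after seeing the data. Vehicle replicate 1 and ISM012-042 replicates 2 and 3 were the highest libraries for both Mcpt1 and Gzma, so the smaller differences were partly built in.

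Gzmb, granzyme B, which triggers death of target cells, followed Gzma in the highest libraries. It ranged from 0 to 1.38 TPM in sham (median 0.376), 0.360 to 12.9 in vehicle (median 0.654) and 0.202 to 9.20 in ISM012-042 (median 1.39). Vehicle replicate 1 and ISM012-042 replicates 2 and 3, at 12.9, 8.38 and 9.20 TPM, stood far from the remaining 15 libraries, none of which passed 1.66 TPM. The difference was 0.72 ± 0.57 in vehicle against sham (limma, adjusted p = 0.552), and 0.22 without vehicle replicate 1. In ISM012-042 against sham it was 1.17 ± 0.57 (adjusted p = 0.251), and 0.38 without replicates 2 and 3.

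Ncr1, the NK cell receptor NKp46, was the only one of the 16 genes with a negative difference in both comparisons with sham in the fit described above. Others joined it in 4 alternative fits: Itgae under quantile normalization, Thy1 under array weights, Cd4 without ISM012-042 replicates 2 and 3, and 8 genes with Mcpt1 as a covariate. It ranged from 1.06 to 2.82 TPM in sham (median 1.63), 0.260 to 1.48 in vehicle (median 0.539) and 0.437 to 1.94 in ISM012-042 (median 0.820). In vehicle and in ISM012-042 4 of 6 libraries lay below the lowest sham library. The difference was -0.69 ± 0.21 in vehicle against sham (limma, unadjusted p = 0.00406, adjusted p = 0.0701; 95% interval -1.13 to -0.25) and -0.52 ± 0.21 in ISM012-042 against sham (adjusted p = 0.194), or -0.74 without replicates 2 and 3. ISM012-042 and vehicle differed by 0.17 ± 0.21 (adjusted p = 0.582). The vehicle difference missed the threshold, and 9 of the 34 alternative fits brought it under, among them median-ratio scaling (-0.63, adjusted p = 0.0488) and the fit without vehicle replicate 1 (-0.80, adjusted p = 0.0267). It was negative in all 34, but some of these, such as those that leave out only ISM012-042 libraries, cannot change the difference itself. The share of all tested genes that passed as lower was 3.93% with array weights, 6.8% with median-ratio scaling and 6.71% with quantile normalization. It was 7.25, 4.1 and 5.92% with Ptprc, Cd79b or Mcpt1 as a covariate, 5.06 and 6.26% without sham replicate 3 or vehicle replicate 1, and 3.96% without ISM012-042 replicates 2 and 3. In ISM012-042 against sham Ncr1 passed under array weights and under quantile normalization, where 3.86% of all genes did so as lower.

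The other cytotoxic and NK genes gave no comparable difference. Nkg7, a protein of cytotoxic granules, had medians of 1.71, 3.02 and 3.09 TPM, with ranges of 1.53 to 3.56, 0.773 to 4.62 and 1.05 to 6.14, and differed by 0.21 ± 0.29 in vehicle against sham. Prf1, the pore-former perforin, had medians of 0.131, 0.159 and 0.108 TPM, and reached 1.01 in ISM012-042 replicate 3. Klrk1, the activating receptor NKG2D, had medians of 0.835, 0.646 and 0.761 TPM. Of the transcription factors, Eomes and Tbx21, which drive cytotoxic and type 1 programmes, never reached 1 TPM, and Gata3, of type 2 cells, did so in 1 library. When the minimum was dropped, 0 of the 17 genes under it passed in any comparison. Of the 25729 genes tested in that fit, 0.113% passed as higher and 1.97% as lower in vehicle against sham. The shares were 0% each way in ISM012-042 against vehicle, and 0.194% and 0.424% in ISM012-042 against sham. The lowest adjusted p of the 17 from limma were 0.472, 0.352 and 0.277 in vehicle against sham, ISM012-042 against vehicle and ISM012-042 against sham. The last was that of Eomes, an NK cell gene whose differences from sham had the opposite sign to those of Ncr1. Eomes was 0.23 ± 0.10 higher in ISM012-042 than in sham (limma, unadjusted p = 0.0260). In vehicle it was 0.10 ± 0.10 higher than in sham (adjusted p = 0.715), and its values lay between 0.035 and 0.692 TPM.

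Ratios of 2 genes within a library do not depend on the library total, and 9 such pairs were compared. The 0.1 TPM added to both genes breaks this in part for genes as low as Foxp3, Cd8b1 and Gzmb. With 1 TPM added instead, 3 differences changed sign in ISM012-042 against sham and 2 in ISM012-042 against vehicle. The log2 ratio of Ncr1 over Cd3e had means of 0.06 ± 0.50 for sham, -1.70 ± 0.91 for vehicle and -1.51 ± 1.15 for ISM012-042 (SD, n = 6). Sham libraries ranged from -0.89 to 0.47 and vehicle libraries from -2.69 to -0.48, so the groups overlapped through sham replicate 3 and vehicle replicates 1 and 4. The difference of -1.76 between vehicle and sham did not pass after adjustment over 27 comparisons (exact two-sided permutation p = 0.00649, adjusted p = 0.175). Nor did that of -1.57 between ISM012-042 and sham (exact p = 0.0195, adjusted p = 0.263), which was -1.26 without replicates 2 and 3 (exact p = 0.0762), and ISM012-042 replicate 6, at 0.61, lay above all sham libraries.

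Granzyme ratios had the opposite sign. Gzmb over Cd3e had means of -1.88 ± 1.27 for sham, -0.96 ± 2.13 for vehicle and -0.46 ± 0.80 for ISM012-042 (SD, n = 6), and the last differed from sham by 1.41 (exact permutation p = 0.0368, adjusted p = 0.331), or by 1.03 without replicates 2 and 3 (exact p = 0.157). Gzma over Cd3e differed by 1.17 between the same groups (exact p = 0.0628, adjusted p = 0.424), or by 1.10 without those libraries (exact p = 0.124). Itgae over Cd3e was -0.89 in vehicle against sham (exact p = 0.0823, adjusted p = 0.444). Cd3e over the B cell gene Cd79b averaged -1.49 ± 1.01, -1.41 ± 1.09 and -1.43 ± 1.24 in sham, vehicle and ISM012-042. Its differences, from -0.03 to 0.09, were small beside that spread, as was that of Cd3e over the pan-leukocyte gene Ptprc in vehicle against sham, at -0.06. None of the 27 passed after adjustment.

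**Figure D5:**
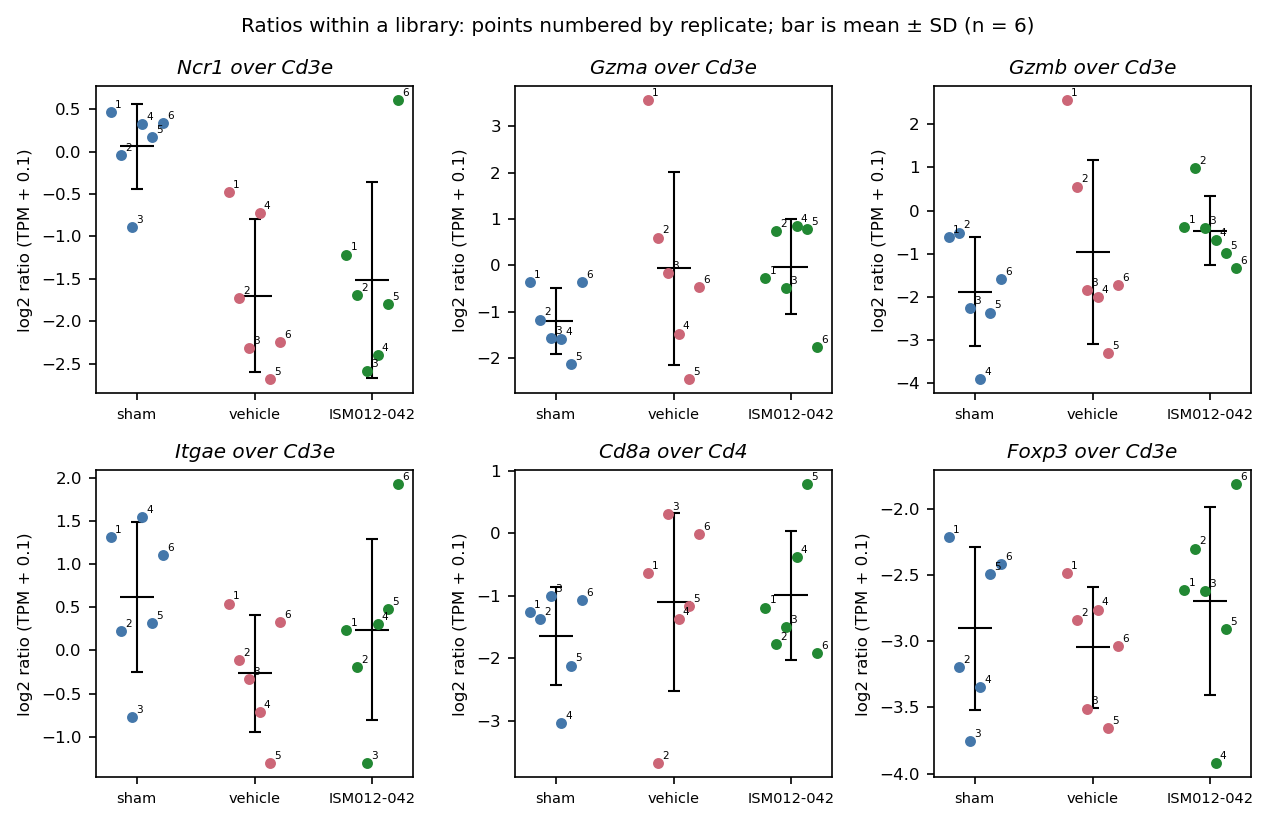
Log2 ratio of 6 gene pairs within each library, with 0.1 TPM added to both genes, 1 point per library numbered by replicate and the mean and SD of each group (n = 6). Ncr1 over Cd3e lies between -0.89 and 0.47 in sham and between -2.69 and -0.48 in vehicle.

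The genes varied together to unequal degrees. After group means were removed, Lck (Pearson r = 0.92 over 18 libraries), Cd3g (0.91), Cd3d (0.89) and Lat (0.89) followed Cd3e closely. Cd7 (0.40), Itgae (0.41), Gzma (0.41), Ncr1 (0.47) and Gzmb (0.48) did so least. Without ISM012-042 replicate 3 the first 4 were 0.82, 0.81, 0.74 and 0.74, while Cd7 was 0.52, Itgae 0.22, Gzma 0.29, Ncr1 0.17 and Gzmb 0.27. Cd4 dropped from 0.75 to 0.44 and Thy1 from 0.55 to 0.48, so that both then lay below Cd7. Of tested genes outside the 33, the 6 most alike to Cd3e were Gimap3 (0.93), Dtx1 (0.93), Pced1b (0.92), Ptprcap (0.91), Gimap7 (0.91) and Ikzf3 (0.91). These were picked as the highest of 14129 genes, and ISM012-042 replicate 3 carries part of the value: without it they were 0.84, 0.83, 0.83, 0.81, 0.79 and 0.78. The libraries also share the mitochondrial load that scales every gene.

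A wider list of 84 other T and NK genes held 76 that were in the table and 36 that met the minimum. Of these 36, 0 passed in any comparison, and 1, 2 and 8 were higher at an unadjusted p under 0.05 in vehicle against sham, ISM012-042 against vehicle and ISM012-042 against sham, with 0 lower. Over all tested genes these shares were 3.16%, 18.9% and 16.3% higher, and 14.9%, 0.127% and 4.44% lower. After adjustment 0.326%, 0% and 0.545% of all tested genes passed as higher, and 4.13%, 0% and 0.871% as lower. The median differences of the 36 were 0.17, 0.28 and 0.47, beside -0.07, 0.30 and 0.21 for all genes, and without ISM012-042 replicates 2 and 3 the last was -0.02. Satb1, a chromatin organiser of T cells, came nearest, 1.004 ± 0.30 higher in ISM012-042 than in sham (limma, adjusted p = 0.0975), with ranges of 1.61 to 4.22 TPM in sham and 2.54 to 14.4 in ISM012-042. Without replicates 2 and 3 it was 0.62. In vehicle against sham, Ptpn22, a phosphatase that restrains receptor signalling, ranged from 0.472 to 1.16 TPM in sham and 1.21 to 4.03 in vehicle, so that the groups did not overlap, and differed by 0.58 ± 0.26 (adjusted p = 0.234). Ptpn22 was picked as the smallest p of the 36 in this comparison, where 0.687% of all tested genes were fully apart as higher. S1pr1, which guides lymphocytes out of tissue, was 0.78 ± 0.41 higher in vehicle (adjusted p = 0.339). For ISM012-042 against vehicle the smallest unadjusted p belonged to Satb1 (0.77 ± 0.30, adjusted p = 0.242, and 0.38 without replicates 2 and 3) and Rora (0.36 ± 0.14, adjusted p = 0.244), the latter a nuclear receptor of type 17 and innate lymphoid cells.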

How the data were processed

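RNA of 18 mouse colon samples was purified and reverse transcribed, per the labels' protocols. The authors deposited TPM values per gene symbol, and the submitters' processing notes name the build mm10 and DRAGEN 4.0.3. No source used here gives the counting method, annotation or strandedness, so genes whose exons overlap another are uncertain, and depth and counting error are unknown. Groups came from sample titles. The 33 genes, the lists beside them and the tests were chosen with earlier results of these data known.

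TPM was converted to log2(TPM + 1). Genes with at least 1 TPM in at least 6 libraries were fitted in limma 3.58.1 (R 4.3.3), with all 18 libraries in 1 fit, no covariate, trended and robust empirical Bayes, and Benjamini-Hochberg adjustment at 0.05. The fit was tested on simulated data. For 9 gene pairs, log2 ratios of TPM + 0.1 were compared by exact two-sided permutation over 924 regroupings, adjusted over 27. All 33 genes are named. Of the other T and NK genes, those of smallest unadjusted p were named (4 per comparison at most; 1 is not reported here), and the 6 genes most correlated with Cd3e. Besides 32 other settings, 3 were added after seeing the data: leaving out ISM012-042 replicates 2 and 3 together, and Cd79b or Mcpt1 as a covariate. No 2 libraries were identical (highest correlation 0.986). Positions and promoters came from RefSeq GRCm38.p6, the assembly of mm10, and exon overlaps from GENCODE M21.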

Additional observations from a re-analysis of the deposited data

Results flagged for a closer look

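In groups of 6, a library was singled out when its gap to the nearest other library, divided by the range of the group on the log2 scale, was above Dixon's 95% critical value of 0.625. Of 99 gene and group combinations 5 met this, where chance gives about 1 in 20, and of 27 ratio and group combinations 2 did. Gzma in vehicle replicate 1 was 25.946 TPM, where the other vehicle libraries lay between 0.646 and 2.434. Gzmb in the same library was 12.917 TPM, against 0.360 to 1.655. Lck in vehicle replicate 5 was 6.755 TPM, against 3.25 to 4.198 in the other vehicle libraries. Cd28 in ISM012-042 replicate 3 was 4.661 TPM, against 0.831 to 1.622 in the rest of its group. Foxp3 in sham replicate 5 was 0.362 TPM, against 0.048 to 0.14.

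Both ratios came from sham replicate 3. Its log2 ratio of Ncr1 over Cd3e was -0.889837, below the range of -0.04 to 0.47 in the other sham libraries. Its log2 ratio of Cd3e over Ptprc was -0.613466, above their range of -2.80 to -2.04.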

How the results depend on the processing

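Of 35 alternatives, none turned a passing gene, since 0 of the 16 genes passed as first fitted. The number that passed as lower in vehicle against sham went from 0 to 1, the gene being Ncr1, under array weights, median-ratio scaling, quantile normalization, Ptprc, Cd79b or Mcpt1 as a covariate, and the fit without ISM012-042 replicates 2 and 3. Of all genes 3.93 to 7.25% passed as lower there, so 1 of 16 was near the background. Leaving out each library in turn gave 0 to 1, with 1 without sham replicate 3 (5.06% of all genes) or vehicle replicate 1 (6.26%). In ISM012-042 against sham, array weights gave 3 higher and 1 lower (16.4% and 6.64% of all genes), and quantile normalization 1 lower (3.86%). In ISM012-042 against vehicle 0 passed in every alternative. The cause was not tested. Single genes that had not passed changed sign in 39, 42 and 15 of 546 fits in vehicle against sham, ISM012-042 against vehicle and ISM012-042 against sham, and ratios in 11, 29 and 14 of 144. For single genes, some of these fits cannot change a sign, because they alter only the error of the difference. They are plain empirical Bayes, only the groups compared, no minimum, the replicate block, and leaving out libraries of the group not compared. The counts therefore understate how often signs changed where they could. No ratio passed in any alternative. With a minimum of 5 TPM, 2 of the 33 genes remained testable. Samples share replicate numbers across groups, but no label says that these pair them. The correlation of same-numbered deviations from the group means ran from -0.38 to 0.61, and 6 of 18 were above 0.1. Of 18 libraries, 4 correlated best with their own number. Such correlations over all genes cannot exclude a pairing. With the replicate number as a block 0 of the 16 genes passed in each comparison, at lowest adjusted p of 0.127, 0.253 and 0.157 from limma. Of all tested genes, 0.439% passed as higher and 3.48% as lower in vehicle against sham under this block. The shares were 0% each way in ISM012-042 against vehicle, and 0.269% and 0.503% in ISM012-042 against sham. Depth is unknown, so for the 17 genes under the minimum the error of single values cannot be given.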
